A study of Mus musculus with 18 samples.

Results

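This report follows 6 genes whose transcripts stood strongly above control after 12 h of follicle-stimulating hormone (FSH) in the mouse testis: Dmkn, Tesc, Hs3st1, Crym, Tnfrsf12a and Esyt3. They were chosen by their 12 h difference from control on these arrays, so their 12 h values describe the choice and carry no test. The array holds 8 probe sets annotated with exactly 1 of these symbols, of 22626 probe sets tested, and the 6 genes are among 12393 genes with such a probe set. Tesc and Tnfrsf12a have 2 probe sets each, and all 8 are given.

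All 18 mice were adult hypogonadal (hpg) males aged 10 weeks, the untreated ones included. Their hypothalamus makes no functional gonadotrophin-releasing hormone, so FSH and luteinising hormone are both nearly absent. The treated groups were 4 mice given recombinant FSH (Gonal F) for 12 h, 3 for 24 h and 4 for 72 h, with 8 IU in 0.2 ml of buffered saline under the skin every 12 h and the testes taken 1 h after the last dose. The reference was 7 hpg males that received no treatment, and no group injected with buffer alone was analysed here. Each mouse gave 1 array of whole testis. In whole testis, fewer cells of a type and less RNA per cell cannot be told apart.

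In the testis the FSH receptor sits on Sertoli cells, which line the seminiferous tubules and nurse the germ cells. It raises cyclic AMP, which activates protein kinase A and transcription factors such as CREB. Many transcripts of this pathway rise within hours and return while the hormone is still given, as phosphodiesterases and repressor proteins are induced with them. The 6 genes have unrelated products. Tnfrsf12a encodes Fn14, the receptor for the cytokine TWEAK. Hs3st1 encodes an enzyme that adds a sulfate group to heparan sulfate chains. Crym encodes mu-crystallin, which binds thyroid hormone in the cytosol. Tesc encodes tescalcin, an EF-hand calcium binding protein first described in the embryonic mouse testis. Esyt3 encodes an extended synaptotagmin of contacts between endoplasmic reticulum and plasma membrane, and Dmkn encodes dermokine, a secreted protein best known from the epidermis.

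The arrays fell into 2 technical sets. Probe sets for the bacterial spike-in Dap averaged 8.05 to 8.86 on 12 arrays (12 h, 72 h and controls 4 to 7) and 2.70 to 3.41 on the other 6 (24 h and controls 1 to 3). Untreated controls of the 2 sets differed at 2107 probe sets. Each time was therefore compared with the controls of its own set, and levels are not compared across sets. The deposited values are on a log2 scale, and array medians lay between 4.44 and 4.63. Of 12 Sertoli cell markers, Clu, Cldn11, Inha, Sox9, Wt1, Gata1 and Dhh averaged 8.17 or more in every group. Gata4, Shbg and Tsx were lower, with lowest group means of 6.79, 7.52 and 7.73. Rhox5 averaged 3.24 in controls 1 to 3, 4.15 in controls 4 to 7 and 3.33 at 12 h. Amh was at 1.56 to 1.59, at the floor of the array. The markers of epididymis and ducts (3 measured) averaged 2.29 to 2.90 on every array.

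Promoter sequence was looked up for the 6 genes in the RefSeq table of build GRCm38.p6, which held 5 of them. Dmkn is the only one of the 5 with a match, within 250 bases before an annotated start, to any of 4 short motifs searched on both strands. These were TGACGTCA (the full cyclic AMP response element), TGACG (a shorter form, also contained in the full element), AAGGTCA (bound by orphan nuclear receptors such as NR5A1) and TGANTCA (bound by AP-1). The 2 Dmkn promoters are shown because their starts are far apart on the same strand. Capitals mark the matches, which are TGAGTCA at -89 in the first, and TGACG at -177 and TGAGTCA at -82 in the second, counted from the annotated start.
Dmkn, chr7:30763506-30763755, plus strand: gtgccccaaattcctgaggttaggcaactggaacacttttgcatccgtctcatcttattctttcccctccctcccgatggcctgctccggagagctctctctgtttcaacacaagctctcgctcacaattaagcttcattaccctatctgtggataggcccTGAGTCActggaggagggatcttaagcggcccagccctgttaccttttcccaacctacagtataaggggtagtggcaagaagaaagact
Dmkn, chr7:30776155-30776404, plus strand: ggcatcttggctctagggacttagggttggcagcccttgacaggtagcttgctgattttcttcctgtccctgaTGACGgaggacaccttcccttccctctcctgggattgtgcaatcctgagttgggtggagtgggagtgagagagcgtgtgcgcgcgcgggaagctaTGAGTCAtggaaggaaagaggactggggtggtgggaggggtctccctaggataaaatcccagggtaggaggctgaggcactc
Another Dmkn entry starts 2 bases after the first and holds the same match. Among 32841 promoters of the same length, 6.75% held TGANTCA, 17.8% TGACG, 4.08% AAGGTCA and 1.55% TGACGTCA. The table gave no match in Tesc, Hs3st1, Tnfrsf12a or Esyt3, and a match is a description of the letters, not of binding.

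The 6 genes shared a large 12 h difference and then took different courses. Hs3st1 and Crym were high at 12 h alone, and at 24 h their levels lay within 0.16 of control. Tesc and Tnfrsf12a were still higher at 24 h, and Dmkn was variable then. At 72 h Esyt3 remained higher by 1.67 ± 0.20 (log2, SE), while the other 5 were not called, and Tnfrsf12a and Crym averaged below control.

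**Figure D1:**
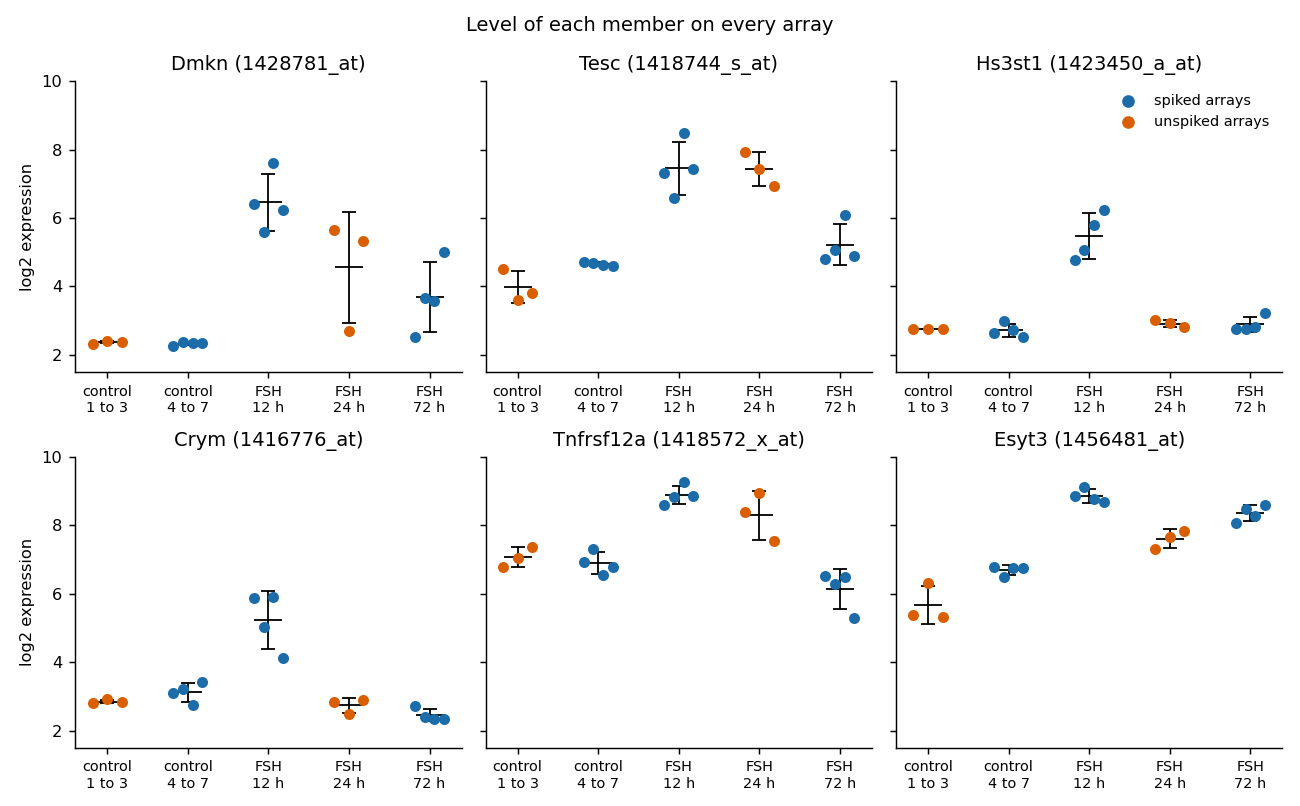
Log2 expression (y axis) of the brightest probe set of each gene on every array, by group (x axis), with 1 point per mouse and bars for mean and SD. Hs3st1 and Crym stand above control at 12 h and lie near it at 24 h and 72 h, whereas Esyt3 is above its own controls at all 3 times.

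Tnfrsf12a, the TWEAK receptor, is an inducible receptor that feeds into NF-kappaB signalling. Its brighter probe set (1418572_x_at, whose suffix marks probes that may also match other transcripts) read 8.60, 8.82, 9.25 and 8.84 at 12 h, against 6.93, 7.29, 6.53 and 6.79 in controls 4 to 7. The difference that chose it was 1.99 ± 0.31 (log2, SE), or 3.98-fold, and the groups did not overlap. At 24 h it read 8.38, 8.93 and 7.53, against 6.78, 7.06 and 7.37 in controls 1 to 3. All 3 treated arrays were above all 3 controls, and the gene rose 2.32-fold (1.22 ± 0.36, limma adjusted p = 0.037). The second probe set, 1418571_at, gave 7.10, 7.56 and 6.27 at 24 h, against 5.35, 5.76 and 5.80 in controls (1.34 ± 0.38, adjusted p = 0.0323). The call at 24 h is fragile in both probe sets. For 1418572_x_at it was lost without 24 h replicate 1 or 2 (1.17 and 0.89, adjusted p = 0.0668 and 0.147), without control 1 or 2 (1.07 and 1.21, adjusted p = 0.135 and 0.0749) and on the unspiked arrays alone (adjusted p = 0.22). Probe set 1418571_at lost it in the same settings, at differences of 1.05 to 1.40 (adjusted p = 0.0616 and 0.126 without 24 h replicate 1 or 2, 0.12 and 0.0575 without control 1 or 2, and 0.157 on the unspiked arrays alone).

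By 72 h Tnfrsf12a no longer stood above control. Probe set 1418572_x_at read 6.52, 6.27, 6.49 and 5.29 at 72 h, against 6.93, 7.29, 6.53 and 6.79 in controls 4 to 7, so each treated array was below each control. The difference of -0.74 ± 0.31 was not called (adjusted p = 0.217). Probe set 1418571_at read 5.34, 4.29, 4.86 and 3.77, against 5.64, 5.89, 5.38 and 5.16 in controls, with overlap at 1 array (-0.95 ± 0.33, adjusted p = 0.12). It was called lower without 72 h replicate 1 (-1.21, adjusted p = 0.0441) and against all 7 controls (adjusted p = 0.0389). Between 72 h and 12 h the 2 probe sets differed by -2.74 ± 0.31 and -3.17 ± 0.33, and no 72 h array reached any 12 h array. The 12 h arrays helped to choose the gene and the set is named for fading, so no test is attached to this difference here or below.

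Hs3st1 encodes heparan sulfate 3-O-sulfotransferase 1, known for making the antithrombin binding site of heparan sulfate. Probe set 1423450_a_at read 4.77, 5.08, 5.79 and 6.23 at 12 h, against 2.63, 2.99, 2.73 and 2.52 in controls 4 to 7, a difference of 2.75 ± 0.24, or 6.73-fold. The control values lie low on the array, at the 29.3 percentile of all probe sets on average, where a fold change may be understated. At 24 h the 3 arrays read 3.01, 2.94 and 2.80, against 2.75, 2.77 and 2.77 in controls 1 to 3. They lay just above the controls without overlap, by 0.16 ± 0.28, and were not called (adjusted p = 0.724). At 72 h the level was 2.76, 2.76, 2.82 and 3.23, against 2.63, 2.99, 2.73 and 2.52 in controls 4 to 7 (0.17 ± 0.24, adjusted p = 0.904). Between 72 h and 12 h Hs3st1 differed by -2.58 ± 0.24, and the 2 groups were apart by more than 1.5 log2 units at their nearest arrays.

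Crym was the other gene high at 12 h alone. Its product holds thyroid hormone in the cytosol and also acts as a ketimine reductase. Probe set 1416776_at read 5.88, 5.01, 5.90 and 4.13 at 12 h, against 3.09, 3.22, 2.74 and 3.41 in controls 4 to 7 (2.12 ± 0.30, 4.34-fold). The 24 h arrays read 2.85, 2.49 and 2.89, against 2.80, 2.91 and 2.84 in controls 1 to 3, and the groups overlapped (-0.11 ± 0.35, adjusted p = 0.862). After 72 h the arrays read 2.73, 2.39, 2.35 and 2.35, against 3.09, 3.22, 2.74 and 3.41 in controls 4 to 7. Each 72 h array was below each control, the highest by 0.01, but the difference of -0.66 ± 0.30 was not called (adjusted p = 0.282). These levels are near the floor, at the 20.6 percentile of the array at 72 h and the 37.0 percentile in controls 4 to 7. Crym differed by -2.78 ± 0.30 between 72 h and 12 h.

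Tesc was still far above control at 24 h. Tescalcin regulates the sodium-proton exchanger NHE1 and inhibits calcineurin. The brighter probe set, 1418744_s_at, whose suffix marks probes that match more than 1 transcript, read 7.32, 6.59, 8.47 and 7.43 at 12 h, against 4.72, 4.69, 4.62 and 4.60 in controls 4 to 7 (2.79 ± 0.37, 6.93-fold). The 24 h arrays read 7.94, 7.42 and 6.94, against 4.52, 3.61 and 3.82 in controls 1 to 3. All 3 treated arrays were more than 2 log2 units above the highest control, and Tesc rose 10.9-fold (3.45 ± 0.42, adjusted p = 0.000131). The call held on the unspiked arrays alone (adjusted p = 0.0249). For this probe set the controls of the 2 array sets differed by -0.67 ± 0.39 (controls 1 to 3 minus controls 4 to 7). The larger fold at 24 h thus does not show a further rise after 12 h. Against all 7 controls the differences were 3.08 at 12 h and 3.06 at 24 h. At 72 h the arrays read 4.81, 5.07, 6.09 and 4.90, against 4.72, 4.69, 4.62 and 4.60 in controls 4 to 7. All 4 were above the controls, but 3 of them by under 0.5, and the difference of 0.56 ± 0.37 was not called (adjusted p = 0.554). Between 72 h and 12 h the difference was -2.24 ± 0.37, with no overlap.

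The dimmer Tesc probe set, 1418743_a_at, had smaller differences and was not called at 24 h. It averaged 4.97 ± 0.87 (SD) at 12 h and 3.22 ± 0.07 in controls 4 to 7 (n = 4 each), a difference of 1.75 ± 0.38 (SE). At 24 h it read 5.30, 5.26 and 3.80, against 3.39, 3.60 and 3.32 in controls 1 to 3 (1.35 ± 0.44, adjusted p = 0.0568). This difference was called without 24 h replicate 3 (1.84, adjusted p = 0.0113), against all 7 controls (1.47, adjusted p = 0.00791) and with a variance trend (adjusted p = 0.0441). At 72 h it averaged 3.61 ± 0.34 (SD), against 3.22 ± 0.07 in controls 4 to 7 (0.38 ± 0.38 SE, adjusted p = 0.808), and between 72 h and 12 h it differed by -1.36 ± 0.38.

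Dmkn had the largest 12 h difference of the 6 genes, and at 24 h and 72 h the widest spread between mice (SD 1.62 and 1.01). Probe set 1428781_at read 6.40, 5.58, 7.60 and 6.23 at 12 h, against 2.27, 2.37, 2.34 and 2.34 in controls 4 to 7 (4.12 ± 0.61, 17.4-fold). It ranked second among 12393 genes at that time, and its control level, at the 16.8 percentile, is at the floor. At 24 h it read 5.66, 2.69 and 5.32, against 2.33, 2.39 and 2.38 in controls 1 to 3. Replicates 1 and 3 were about 3 log2 units above control, whereas replicate 2 was within 0.5 of it. The difference of 2.19 ± 0.70 was not called (adjusted p = 0.053), but it was without replicate 2 (3.12, adjusted p = 0.00459), against all 7 controls (2.21, adjusted p = 0.0101) and with a variance trend (adjusted p = 0.0466).

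At 72 h the Dmkn arrays were widely spread and all below the lowest 12 h array. They read 2.52, 3.68, 3.57 and 4.99, against 2.27, 2.37, 2.34 and 2.34 in controls 4 to 7. All 4 were above the controls, with replicate 1 near them, and the difference of 1.36 ± 0.61 was not called (adjusted p = 0.269). Dmkn differed by -2.76 ± 0.61 between 72 h and 12 h. Of 11 measured markers of epidermis and simple epithelia, 0 were called higher and 1 (Epcam) lower at each time. The list mean was 3.40 to 3.53 at 12 h, against 3.50 to 3.53 in controls 4 to 7. Epcam and Krt10 averaged 8.52 and 6.01 at 12 h, and the other markers 2.01 to 3.22, near the floor. Krtdap, the neighbour of Dmkn in the genome and like it an epidermal gene, averaged 2.48 at 12 h, against 2.47 in controls 4 to 7, at the floor.

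Esyt3 went against the name of the set, since it was still clearly above control at 72 h. Probe set 1456481_at read 8.85, 9.12, 8.77 and 8.67 at 12 h, against 6.79, 6.47, 6.76 and 6.74 in controls 4 to 7 (2.16 ± 0.20, 4.47-fold). At 24 h it read 7.30, 7.67 and 7.83, against 5.39, 6.31 and 5.31 in controls 1 to 3. The groups were apart, and Esyt3 rose 3.81-fold (1.93 ± 0.23, adjusted p = 9.86e-05, but adjusted p = 0.0649 on the unspiked arrays alone). At 72 h the arrays read 8.08, 8.48, 8.28 and 8.60, against 6.79, 6.47, 6.76 and 6.74 in controls 4 to 7, a rise of 3.18-fold (1.67 ± 0.20, adjusted p = 0.000142). Every 72 h array was more than 1 log2 unit above every control. Between 72 h and 12 h Esyt3 differed by only -0.49 ± 0.20, although the highest 72 h array was still below the lowest 12 h array. The controls of the 2 array sets differed for this gene by -1.02 ± 0.21 (controls 1 to 3 minus controls 4 to 7), so its 24 h level cannot be set against its 12 h level.

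In counts, 3 of the 6 genes (Tesc, Tnfrsf12a and Esyt3, each by its brightest probe set) were called higher at 24 h, where 6.1% of all probe sets were, and 0 were called lower, where 7.26% were. At an unadjusted p below 0.05 the 24 h counts were 4 higher and 0 lower. At 5 of the 6 genes all 24 h arrays lay above all controls 1 to 3, as they did for 25.8% of all probe sets. At 72 h 1 gene (Esyt3) was called higher and 0 lower, where 3.63% and 2.5% of all probe sets were, or 2 and 2 at an unadjusted p below 0.05. At 3 of the 6 genes (Dmkn, Tesc and Esyt3) all 72 h arrays lay above all controls 4 to 7 (6.91% of all probe sets), and at 2 (Crym and Tnfrsf12a) all lay below (5.64%). The group means of the 24 h comparison share no array with the one that chose the genes, while the 72 h comparison shares controls 4 to 7. Both used a spread per probe set estimated from all 18 arrays, which include the 12 h arrays that chose the genes. On the unspiked arrays alone only Tesc stayed called at 24 h. For the 12 h contrast all 6 genes lay above control without overlap, where 5.71% of probe sets did, and between 72 h and 12 h all 6 lay below, where 4.03% did. Both follow from the choice of the genes.

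Arrays of equal replicate number at 24 h and in controls 1 to 3 deviated together, as described with the processing. With the number as a block no 24 h call held. Tesc then had an adjusted p of 0.0574 (1418744_s_at), Esyt3 of 0.094 and Tnfrsf12a of 0.181 and 0.252 (1418571_at and 1418572_x_at), with fold changes as above. That fit on 6 arrays has 2 residual degrees of freedom and called 0 of 22626 probe sets, with 4957 at an unadjusted p below 0.05 in limma.

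**Figure D2:**
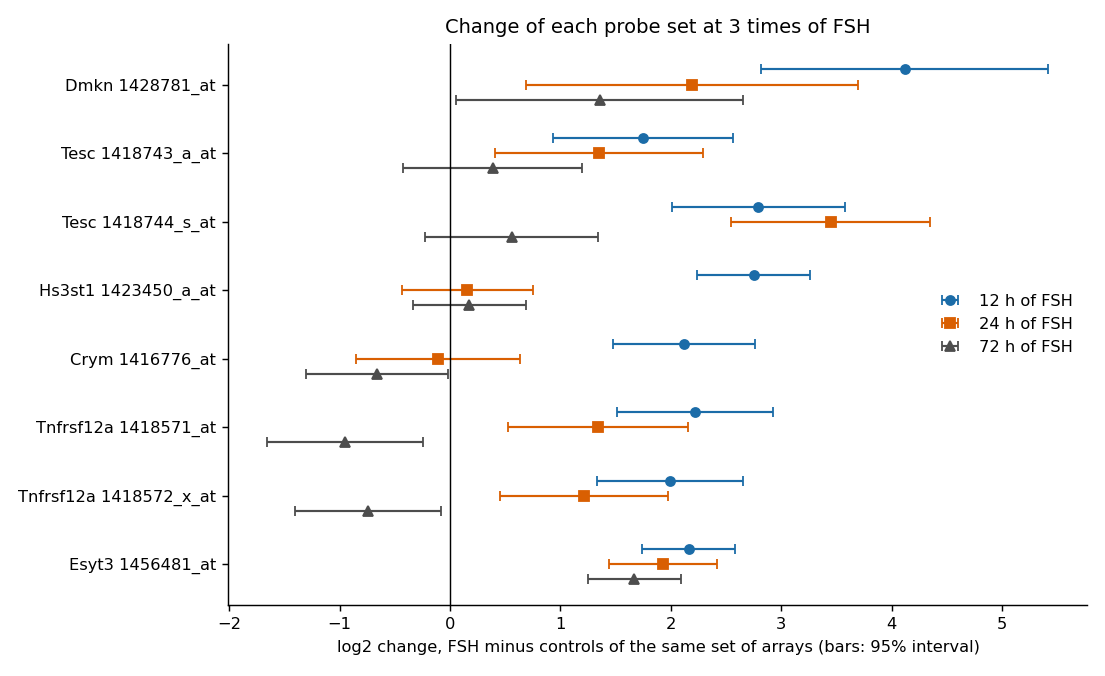
Log2 change (x axis, FSH minus same-set controls) of each of the 8 probe sets (rows) at 12 h, 24 h and 72 h, with 95% intervals. At 24 h Hs3st1 and Crym span 0 while both Tesc probe sets, both Tnfrsf12a probe sets, Dmkn and Esyt3 lie above it. At 72 h both Tnfrsf12a probe sets and Crym lie below it, and Dmkn and Esyt3 above it. The intervals are not adjusted for the number of probe sets. Dmkn and Tesc 1418743_a_at at 24 h, and Tnfrsf12a, Crym and Dmkn at 72 h, were not called.

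The change at 24 h minus the change at 12 h, each against its own controls, is a description only, since it contains the 12 h change that chose the genes. It was -2.59 ± 0.37 for Hs3st1 and -2.22 ± 0.46 for Crym. For Dmkn it was -1.93 ± 0.93, for Tnfrsf12a -0.78 ± 0.47 and -0.88 ± 0.50, for Esyt3 -0.23 ± 0.30 and for Tesc 0.65 ± 0.56 (1418744_s_at) and -0.40 ± 0.58 (1418743_a_at).

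Mice differed in which gene was highest. At 12 h replicate 3 had the highest Dmkn, Tesc, Tnfrsf12a and Crym of the 4 mice. Hs3st1 was highest in replicate 4 (6.23), the mouse with the lowest Crym (4.13). At 24 h replicate 2, the mouse with Dmkn near control (2.69), had the highest Tnfrsf12a (8.93). At 72 h replicate 4 had the highest Dmkn (4.99) and the lowest Tnfrsf12a (5.29). Over all 18 arrays, with each value taken minus the mean of the controls of its set, Pearson correlations between pairs of the 6 genes ran from 0.36 (Crym and Esyt3) to 0.81 (Hs3st1 and Crym). They are a description, since all pairs share the arrays and the high 12 h group. The 2 probe sets of Tnfrsf12a correlated at 0.99 and those of Tesc at 0.86.

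At 12 h the 6 genes ranked 2 (Dmkn), 9 (Tesc), 10 (Hs3st1), 20 (Esyt3), 21 (Crym) and 24 (Tnfrsf12a) among 12393 genes by their difference from controls 4 to 7. A further 18 genes had a difference at least as large as the 1.99 of Tnfrsf12a, and just under it stood Fbxo4 (1.99), Hdc (1.98) and Slc38a5 (1.96). By the difference between 72 h and 12 h, Crym, Dmkn, Tnfrsf12a, Hs3st1 and Tesc were all among the 8 lowest of the 12393 genes, and Esyt3 ranked 12001. This ranking contains the 12 h values that chose the genes, and the set is named for fading, so it is a description. Of the 18 further genes, 5 had under 50% of their 12 h log2 change left at 72 h (median 64.5% left). Of the 6 genes, 5 had under 50% left. These shares are taken of the 12 h change that chose the 6 genes, so they too are a description.

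The genes with the most similar profile differed from member to member. Likeness was the Pearson correlation over the 18 arrays, each value minus the mean of the controls of its set, among 8351 probe sets that spanned at least 1 log2 unit. It is given with no test, and it is carried largely by the differences between groups. Tesc was most like Aqp5, a water channel (r = 0.94), Star, which carries cholesterol into mitochondria (r = 0.94), and Cyp17a1, a steroid hydroxylase and lyase (r = 0.91). Star (probe set 1449201_at) changed by 2.76, 3.83 and 1.08 at 12, 24 and 72 h and Cyp17a1 by 2.86, 4.62 and 0.40, beside 2.79, 3.45 and 0.56 for Tesc. Tnfrsf12a was most like Slc46a1, a folate transporter (r = 0.88), Aqp5 (r = 0.88) and Slc29a3, a nucleoside transporter (r = 0.88).

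Among the genes high at 12 h alone, Hs3st1 was most like Dnmt3l, a regulator of DNA methylation (r = 0.97), Msi2, an RNA binding protein (r = 0.95), and Cabp1, a calcium binding protein (r = 0.94). Cabp1 changed by 1.48, 0.07 and 0.43 at 12, 24 and 72 h. Crym was most like Wnt4, a secreted Wnt ligand (r = 0.94), which changed by 1.26, 0.01 and -0.08, and then Spef1 and Nefm (r = 0.90 each). Dmkn was most like Cidea, a lipid droplet protein (r = 0.90), Idh3a and Rab13 (r = 0.89 each). Esyt3 was most like Col18a1, a basement membrane collagen (r = 0.95), Pvr, an adhesion receptor (r = 0.95), and Hopx (r = 0.95). Col18a1 (probe set 1426955_at) changed by 1.998, 1.96 and 1.90, beside 2.16, 1.93 and 1.67 for Esyt3.

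**Figure D3:**
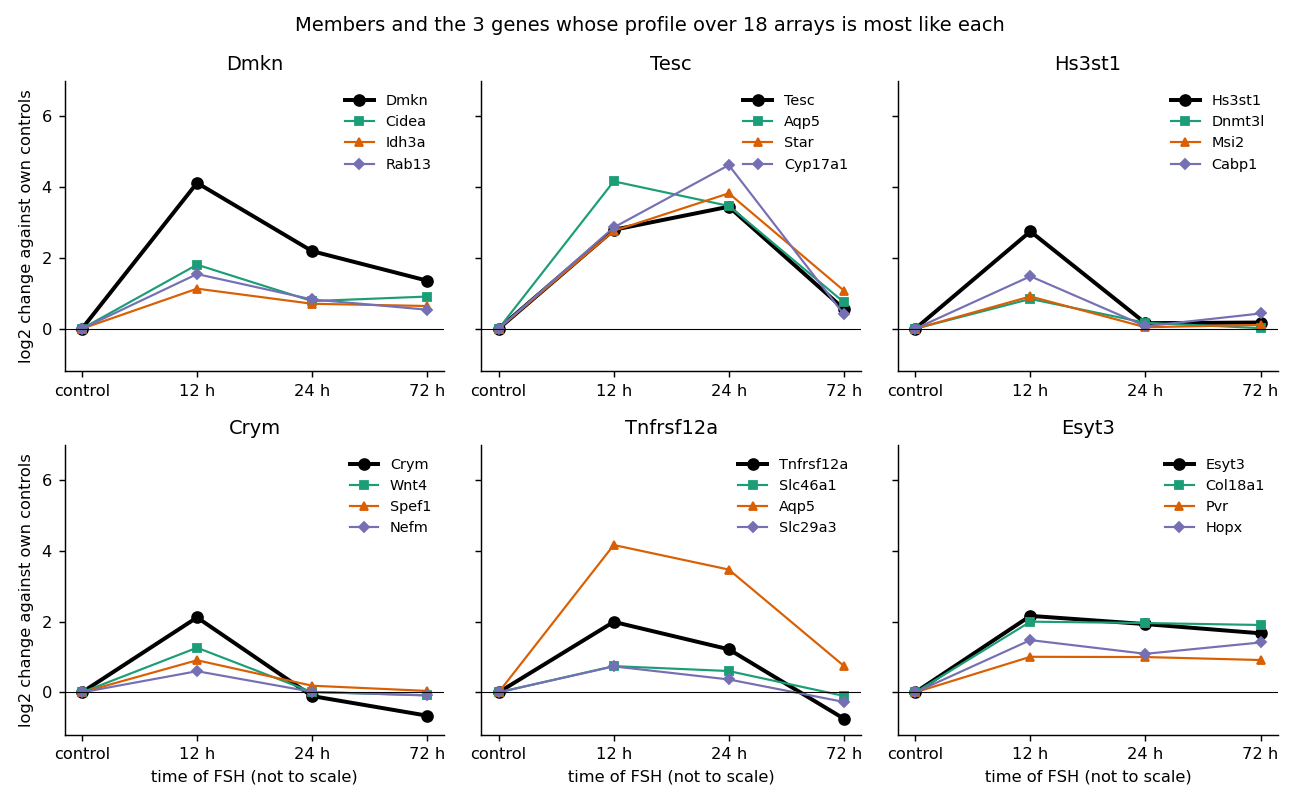
Log2 change against own controls (y axis) at 12, 24 and 72 h (x axis, not to scale, control set to 0) for each gene (black) and the 3 genes of most similar profile (coloured). The genes beside Hs3st1 and Crym return to about 0 at 24 h, and those beside Esyt3 stay high at 72 h. Aqp5, Star (by 1449201_at, not its brightest probe set) and Cyp17a1 follow Tesc.

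Called partners of each gene in its pathway are counted below, list by list, to be read beside the shares of all 12393 genes. In the 24 h counts that follow no call held with the replicate number as a block. Of all 12393 genes 3.52% were called higher at 12 h, 6.38% at 24 h and 4.23% at 72 h. The shares called lower were 2.76%, 8.45% and 3.03%. The median change over all genes was -0.00, 0.04 and 0.01 at 12, 24 and 72 h.

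Of 19 measured genes that build and modify heparan sulfate, other than Hs3st1, 0 were called in either direction at 12 h or 72 h. By unadjusted p, 2 were higher and 1 lower at 12 h, while 72 h had 1 of each. At 24 h 0 were called higher and 3 lower (0 and 4 by unadjusted p). These were Extl3, a chain initiating transferase (6.11 at 24 h, against 7.00 in controls, -0.89 ± 0.16, adjusted p = 0.00211), Hs6st2, a 6-O-sulfotransferase (7.61 at 24 h, against 8.61 in controls, adjusted p = 0.00351), and Glce, the chain epimerase (-1.27 ± 0.34, adjusted p = 0.0235). The list median was -0.01 at 24 h and 0.02 at 12 h. The related 3-O-sulfotransferase Hs3st3b1 read 2.35 at 12 h, against 2.33 in controls 4 to 7, at the floor. Extl1, Ndst3, Ndst4, Hs6st3, Hs3st3a1 and Xylt2 also averaged 2.10 to 2.77 at 12 h, near the floor.

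Among 11 core proteins that can carry heparan sulfate, Col18a1 was called higher at all 3 times. By its brightest probe set it averaged 9.13 at 12 h, against 7.18 in controls 4 to 7 (1.95 ± 0.19, adjusted p = 2.58e-05), followed by differences of 2.04 ± 0.22 (24 h, adjusted p = 5.13e-05) and 2.19 ± 0.19 (72 h, adjusted p = 1.11e-05). Sdc1 (syndecan 1, -1.09 ± 0.22) and Gpc3 (glypican 3, -1.54 ± 0.37) were lower at 24 h (adjusted p = 0.00493 and 0.0133). The list median was 0.19, -0.18 and -0.06 at 12, 24 and 72 h.

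Signalling partners of Fn14 were not called higher at 12 h. Of 14 measured genes of TWEAK and NF-kappaB signalling, 0 were called higher and 1 lower at 12 h, also 0 and 1 by unadjusted p. It was Birc2, an inhibitor of apoptosis protein that binds TRAF2 (8.49 at 12 h, against 8.90 in controls 4 to 7, -0.41 ± 0.09, adjusted p = 0.0161). At 24 h 1 was higher and 3 lower: Nfkbie, near the floor at 3.20, against 2.88 in controls (0.32 ± 0.09, adjusted p = 0.0341), and Birc2, Rela and Ikbkb at -0.58 ± 0.11, -0.72 ± 0.16 and -0.86 ± 0.24 (adjusted p = 0.00287, 0.00762 and 0.0315). At 72 h Birc2 was again lower (-0.38 ± 0.09, adjusted p = 0.0256). Nfkbia, a feedback target of NF-kappaB, read 10.1 at 12 h and 10.1 in controls 4 to 7 (-0.03 ± 0.17, not called). Traf1, Tnfaip3, Traf6, Nfkbie, Map3k14 and Relb averaged 2.14 to 3.21 at 12 h, near the floor. The TWEAK gene Tnfsf12, and Traf3, Nfkb1 and Chuk, were listed but not measured. The list median was -0.00, -0.02 and -0.12 at 12, 24 and 72 h.

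Of 12 measured genes of thyroid hormone handling, 1 was called higher and 1 lower at 12 h. They were Me1, malic enzyme (0.64 ± 0.14, adjusted p = 0.0145), and Rxrb, a retinoid X receptor (-0.49 ± 0.09, adjusted p = 0.00396). Me1 then fell (10.3 at 72 h, against 10.9 at 12 h, -0.65 ± 0.14, adjusted p = 0.024). At 24 h Thrsp (0.97 ± 0.27, adjusted p = 0.0304) and Dio1, near the floor (0.19 ± 0.06, adjusted p = 0.049), were higher, and Thra, the main thyroid hormone receptor of the testis, was lower (-0.64 ± 0.15, adjusted p = 0.0142). At 72 h 0 were called, with 1 higher and 2 lower by unadjusted p.

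Of 12 measured partners of tescalcin and members of the calcineurin pathway, 1 was called higher and 2 lower at 12 h. Rcan1, an inhibitor of calcineurin, averaged 6.50 at 12 h, against 5.61 in controls 4 to 7 (0.89 ± 0.22, adjusted p = 0.026), and stayed higher at 72 h (0.92 ± 0.22, adjusted p = 0.02). Ppp3cc, the testis form of the catalytic subunit (-0.82 ± 0.19, adjusted p = 0.018), and Rcan2 (-1.10 ± 0.28, adjusted p = 0.0344) were lower at 12 h. Rcan2 read 2.30 at 12 h and 2.31 at 72 h, at the floor, against 3.41 in controls 4 to 7 (adjusted p = 0.032 at 72 h). At 24 h only Nfatc2 of this list was called (2.60 at 24 h, against 2.43 in controls 1 to 3, near the floor).

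Of 12 measured tethers of membrane contacts, 0 were called at 12 h or 24 h (1 higher and 1 lower by unadjusted p at 12 h, 0 and 1 at 24 h), and 1 at 72 h, the sterol transporter Gramd1a (0.74 ± 0.16, adjusted p = 0.0124). By unadjusted p, 4 were higher and 1 lower at 72 h. Esyt1, a relative of Esyt3, read 4.61 at 12 h, against 4.35 in controls 4 to 7 (0.26 ± 0.32, adjusted p = 0.954).

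Of 10 measured genes known to be induced by cyclic AMP as feedback, 3 were called higher and 1 lower at 12 h. Nr4a1, an immediate early nuclear receptor, averaged 6.76 at 12 h, against 4.91 in controls 4 to 7 (1.85 ± 0.27, adjusted p = 0.000736), and its 72 h level was below its 12 h level (-1.42 ± 0.27, adjusted p = 0.012). Per1, a clock gene (0.74 ± 0.13, adjusted p = 0.0037), and Pde4b, a phosphodiesterase (1.40 ± 0.36, adjusted p = 0.0378), were higher, and Rgs2 was lower (-1.08 ± 0.22, adjusted p = 0.00814). Pde4b stayed higher at 72 h (1.64 ± 0.36, adjusted p = 0.0141). At 24 h 0 were higher (3 by unadjusted p), and Rgs2 and Dusp1 were lower (-1.06 ± 0.25 and -1.22 ± 0.29, adjusted p = 0.0135 and 0.0141). The list median was 0.03, 0.12 and 0.00 at 12, 24 and 72 h.

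**Figure D4:**
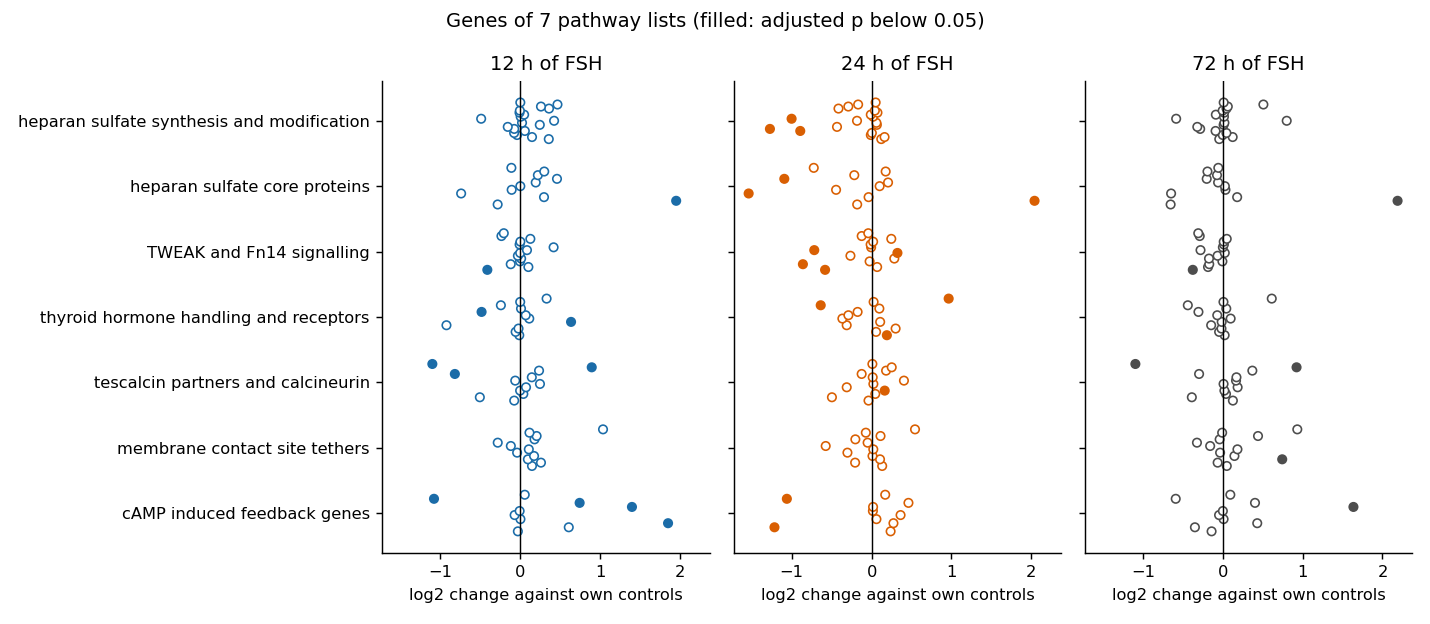
Log2 change against own controls (x axis) of every measured gene in 7 pathway lists (rows) at 12, 24 and 72 h, with 1 point per gene and filled points at an adjusted p below 0.05. Most points lie near 0 at each time, and Col18a1, the rightmost point among the core proteins, is near 2 in all 3 panels.

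Markers of other cell types moved at the same times, and their part in these results was not tested. The mean of 5 Leydig cell markers ran from 7.77 to 8.16 at 12 h and from 6.55 to 7.40 at 72 h, against 5.94 to 7.10 in controls 4 to 7. At 24 h it ran from 7.63 to 8.53, against 5.93 to 6.04 in controls 1 to 3. Of these 5 markers 2, 3 and 0 were called higher at 12, 24 and 72 h, Star and Cyp17a1 at both early times and Cyp11a1 at 24 h, and Hsd3b1 and Hsd17b3 were not called at any time. Star (-1.66 ± 0.27, adjusted p = 0.00474) and Cyp17a1 (-2.46 ± 0.41, adjusted p = 0.00495) were called lower between 72 h and 12 h, and 0 were called higher. Sertoli cell markers ran from 8.19 to 8.42 at 12 h and 8.92 to 9.07 at 72 h, against 8.11 to 8.27 in controls 4 to 7. Of the 12, 3 were called higher at 12 h (Inha, Dhh and Cldn11). Between 72 h and 12 h 3 were called higher, Rhox5, Tsx and Shbg (5.09 ± 0.41, 3.21 ± 0.32 and 1.74 ± 0.15), and 0 lower (2 by unadjusted p), with a list median of -0.02. Macrophage markers (6 measured) ran from 5.37 to 5.68 at 12 h, against 5.53 to 6.001 in controls 4 to 7. Myoid markers (5 measured) ran from 7.25 to 7.82 at 12 h, against 6.81 to 7.33 in controls 4 to 7, endothelial ones (4) from 3.16 to 3.30, against 3.11 to 3.80, and spermatogonial ones (7) from 6.64 to 7.04, against 6.90 to 7.27. At 24 h the spermatogonial markers ran from 6.11 to 6.72, against 7.00 to 7.35 in controls 1 to 3, and 3 of 7 were called lower. At 72 h they ran from 6.47 to 6.77, against 6.90 to 7.27 in controls 4 to 7, without overlap, and 2 were called lower (Sall4 and Stra8), while Sall4 alone was called lower at 12 h. The myoid marker Tagln was called lower between 72 h and 12 h (8.24 at 72 h, against 9.67 at 12 h, adjusted p = 0.0258). The macrophage marker Csf1r was called lower at 12 h and 24 h. At 72 h the macrophage markers ran from 5.99 to 6.37, against 5.53 to 6.001 in controls 4 to 7, and 1 of 6 was called higher.

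Genes next to the 6 on their chromosomes were looked up in the same RefSeq assembly, 2 protein-coding genes on each side, of which 18 of 24 were measured. At 12, 24 and 72 h 2, 2 and 1 of them were called. Of all 12393 genes 3.52%, 6.38% and 4.23% were called higher at these times, and 2.76%, 8.45% and 3.03% lower. Mras, a small GTPase next to Esyt3, was higher throughout, with differences of 0.94, 0.87 and 1.01 at 12, 24 and 72 h (adjusted p = 0.0254, 0.0423 and 0.0154). Fbxo21 beside Tesc was higher at 12 h (0.50, adjusted p = 0.0396), and Hcfc1r1 beside Tnfrsf12a was lower at 24 h (-0.77, adjusted p = 0.0114). The measured neighbours of Dmkn, Hs3st1 and Crym were not called at any time, but most of them lie low on the array. Over all arrays Gapdhs, Krtdap and Ffar2 beside Dmkn averaged 2.65, 2.53 and 1.99. Beside Hs3st1, Clnk and Nkx3-2 averaged 1.98 and 2.06, and Zfp518b and Rab28 averaged 6.09 and 8.78. Zp2, the only measured neighbour of Crym, averaged 1.90.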

How the data were processed

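RNA of whole testis from 18 mice was hybridised to MOE430A arrays (1 colour), per the labels. The authors deposited 1 table of 22690 probe sets, whose values are read here as log2, since they span 1.04 to 15.2. RMA and GCRMA are both named, per the submitters' processing notes. The method that made the values, its version and the genome build were not given in the sources used here. Precision is limited by the number of arrays.

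The 64 control probe sets were left out. The other 22626 were fitted with limma 3.58.1 in R 4.3.3 (lmFit and eBayes), with a mean for each group within its technical set (5 means, 13 residual degrees of freedom). P values are two-sided and adjusted by Benjamini-Hochberg over all 22626, and a call needs an adjusted p below 0.05. No filter on low values was used. Passing the one tried (a value of 4 or more on 3 arrays) is decided by the treated arrays for 4 of the 8 probe sets. Hs3st1 and Crym reach it on the 4 arrays of 12 h alone, and Dmkn and Tesc 1418743_a_at on treated arrays alone, so their filtered values support nothing. The platform annotation gives 20380 probe sets 1 symbol, 691 several and 1555 none. A gene is represented by its probe set of highest mean. The code was tested on simulated data. No 2 arrays were duplicates (highest correlation 0.997).

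The members and the gene lists were chosen with earlier results of these data known. Genes named are the 6, the 3 of most similar profile to each, and up to 3 called genes of each list by smallest p at 24 h. Nr4a1, Per1, Pde4b, Rcan1, Rcan2, Ppp3cc, Me1, Rxrb, Gramd1a, Nfkbie, Nfkbia, Esyt1, Hs3st3b1, the neighbours and the markers were named after their values were seen. So were the listed genes given as near the floor. Arrays of equal replicate number at 24 h and in controls 1 to 3 deviated together from their group means (correlations of 0.18, 0.34 and 0.41). A pairing by number is thus inferred from the data alone, and arrays of unequal number were not compared in this way. The alternatives tried were all 7 controls without the set, each set alone, a filter on low values, quantile normalisation, a variance trend, leaving out each array, and the replicate number as a block. The fit with a variance trend also used robust moderation.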

Additional observations from a re-analysis of the deposited data

Results flagged for a closer look

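Opposite sides of control at different times marked 2 genes. At 72 h every Crym array was below the mean of controls 4 to 7 (by -0.66 on average), while every 12 h array was above it (2.12). Tnfrsf12a did the same in both probe sets (-0.95 in 1418571_at and -0.74 in 1418572_x_at at 72 h), while all arrays of 12 h (2.22 and 1.99) and of 24 h (1.34 and 1.22 above controls 1 to 3) were above. These differences between times were not tested, since the 12 h arrays served to choose the genes and the 24 h arrays belong to another technical set. Single mice stood apart in 3 of 32 groups checked, where chance gives about 5%. They were 72 h replicate 4 for Hs3st1 (3.23), 72 h replicate 1 for Crym (2.73) and control 5 for Esyt3 (6.47). The groups were 12 h, 72 h, all 7 controls (from both technical sets) and controls 4 to 7, so some share arrays. The 24 h group was not checked.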

How the results depend on the processing

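With 3 and 4 mice a group, a call near the threshold turns on single arrays, and values at the floor of the array give only a bound on the transcript. At 24 h 3023 probe sets were called. The count was 8137 against all 7 controls, 393 on the unspiked arrays alone and 0 with the replicate block, and 1678 to 3848 with 1 array left out, lowest without control 1. Members called higher at 24 h were 3, or 1 (Tesc) on the unspiked arrays alone and 0 with the replicate block, and 2 to 3 with 1 array left out. They were 4, with Dmkn added, against all 7 controls and with a variance trend. The filter on low values also gave 4, but Dmkn passes it on treated arrays alone. Between 72 h and 12 h 535 probe sets were called, 98 with the replicate block and 290 to 500 with 1 array left out, with 290, 328 and 309 without 12 h replicate 3, 12 h replicate 4 and 72 h replicate 2. There the correlations between arrays of equal number were lower than at 24 h (0.01 to 0.13). At 12 h and 72 h the counts of all called probe sets were 1211 and 1388 and stayed within 1.5 times (877 to 1149 and 994 to 1287 with 1 array left out). No such block could be fitted at 12 h or 72 h against control, which share 1 number. The 24 h difference of Crym ranged from -0.18 to 0.022 with 1 array left out, positive without 24 h replicate 2. With a filter on low values 2545 probe sets were called at 24 h, 813 higher and 1732 lower, against 1381 and 1642. The 12 h difference of Esyt3 was 2.60 against all 7 controls. The causes of these changes were not tested.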
